A study of Mus musculus with 6 samples.

Results

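The genes by which B cells present antigen to helper T cells on MHC class II molecules were followed in splenic B cells of CD37KO and WT mice. The 10 genes were chosen by their role, with earlier results of these data known. They are the class II chains H2-Aa, H2-Ab1 and H2-Eb1, the invariant chain Cd74, the master regulator Ciita, the chaperone chains H2-Oa and H2-Ob, and the costimulatory ligands Cd80, Cd86 and Icosl. All 10 were measured by a probe set that names only that gene, out of 19935 genes measured in this way. Where a gene had several probe sets the brightest was used, which among the 10 applied only to Cd80, with 2 probe sets.

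The CD37KO mice were of the genotype Cd37 -/-, which lack the tetraspanin CD37 in every cell and not only in B cells. The WT mice were their littermates, and all mice were C57BL/6J animals with a labelled age of 3 months, untreated, whereas the methods state an older age. B cells were obtained by depleting CD43-bearing splenocytes, and B220 staining served to check purity, so that other cells could remain in part. RNA of 3 CD37KO and 3 WT mice was hybridised to Affymetrix gene arrays, with 1 array per mouse. Values are log2 expression after RMA, so a difference of 1 is a doubling of signal.

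On a B cell, the alpha and beta chains of a class II molecule assemble with the invariant chain, which guides them to endosomes. There the invariant chain is cut down to a fragment that H2-DM exchanges for antigen peptides, and H2-DO, made of H2-Oa and H2-Ob, restrains H2-DM in B cells. CIITA does not bind DNA itself. It is held at class II promoters by RFX, CREB and NF-Y proteins, which sit on conserved X and Y boxes. CD80 and CD86 bind CD28 and CTLA-4 on T cells, and the ICOS ligand binds ICOS. Tetraspanins, CD37 among them, have been found in complexes with class II molecules on the surface of B cells.

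The promoter stretches of 4 class II members are shown because class II genes are known for X and Y boxes before the start. Only Y box letters and the X2 box letters TGACGTCA were looked for, so any other X box letters are not marked. Of the 10 genes, 6 had a RefSeq promoter entry (GRCm38.p6). The sequences run 5′ to 3′ over the 120 bases before the annotated start, with capitals marking the Y box letters CTGATTGG or their core GATTGG, and in H2-Aa also the X2 box letters TGACGTCA. They lie at chr17:34287824-34287943 (minus strand) for H2-Aa, chr17:34305747-34305866 (plus strand) for H2-Eb1, chr17:34092259-34092378 (plus strand) for H2-Oa and chr17:34238785-34238904 (plus strand) for H2-Ob.
H2-Aa: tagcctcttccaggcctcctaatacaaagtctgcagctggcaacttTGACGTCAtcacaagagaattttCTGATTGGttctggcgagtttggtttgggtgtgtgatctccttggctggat
H2-Eb1: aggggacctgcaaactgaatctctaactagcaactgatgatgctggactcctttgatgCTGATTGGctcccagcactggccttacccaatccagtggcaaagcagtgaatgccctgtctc
H2-Oa: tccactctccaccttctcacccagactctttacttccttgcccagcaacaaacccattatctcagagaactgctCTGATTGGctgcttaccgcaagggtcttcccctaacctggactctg
H2-Ob: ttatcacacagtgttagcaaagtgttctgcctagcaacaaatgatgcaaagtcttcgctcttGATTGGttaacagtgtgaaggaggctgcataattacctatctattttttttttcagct

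The 8 letters CTGATTGG began 51 bases before the start in H2-Aa, 62 in H2-Eb1 and 46 in H2-Oa, and H2-Ob had only the core, 58 bases before the start. H2-Eb1 also held the core on the opposite strand, 35 bases before the start, which is not capitalised. Of all 32851 promoters, 1.38% held the 8 letters on the same strand within the 120 bases before the start. For the core this share was 5.15% and for the X2 box letters 1.24%. In windows of 300 bases around the start, on either strand, 4.10% held the 8 letters, 16.1% the core and 1.79% the X2 box letters. The core is part of the 8 letters. The Cd80 window held none of the 3 motifs, and the Icosl window held the core 146 bases before the start. A match of letters is a description and not a measured binding site.

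None of the 10 genes passed the test for a difference between CD37KO and WT B cells. In limma, 0 of the 10 were called at an adjusted p under 0.05, where 0.0552% of all genes were called (11 genes, with 5 higher and 6 lower in CD37KO). At an unadjusted p under 0.05 from limma 0 of the 10 passed too, against 5.95% of all genes. In none did the 3 CD37KO arrays lie entirely above or below the 3 WT arrays, which 11.9% of all genes did in either direction. The median log2 difference of the 10 genes was 0.048, beside -0.019 for all genes, and 6 were positive and 4 negative. The median size of the difference, regardless of sign, was 0.061 for the 10 genes and 0.065 for all genes. All 10 were above background in all 6 arrays, where background was a log2 level of 5.76, set by olfactory receptor genes that B cells do not use.

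The precision of these comparisons is given by the 95% intervals of the differences. Taken over the 10 genes, these intervals reached as high as 1.40 times the WT level (Cd80) and as low as 0.840 times it (Icosl). The number of arrays limits this precision. Exact two-sided permutation tests of the 10 differences, taken singly, gave p of 0.20 to 1.00, and 3 arrays against 3 cannot give less than 0.10. The deleted gene served to check the labels, with Cd37 at 8.16 ± 0.011 in CD37KO and 11.97 ± 0.13 in WT cells (log2, SD, n = 3 each). In bulk RNA, fewer cells of a type and less RNA per cell cannot be told apart.

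**Figure D1:**
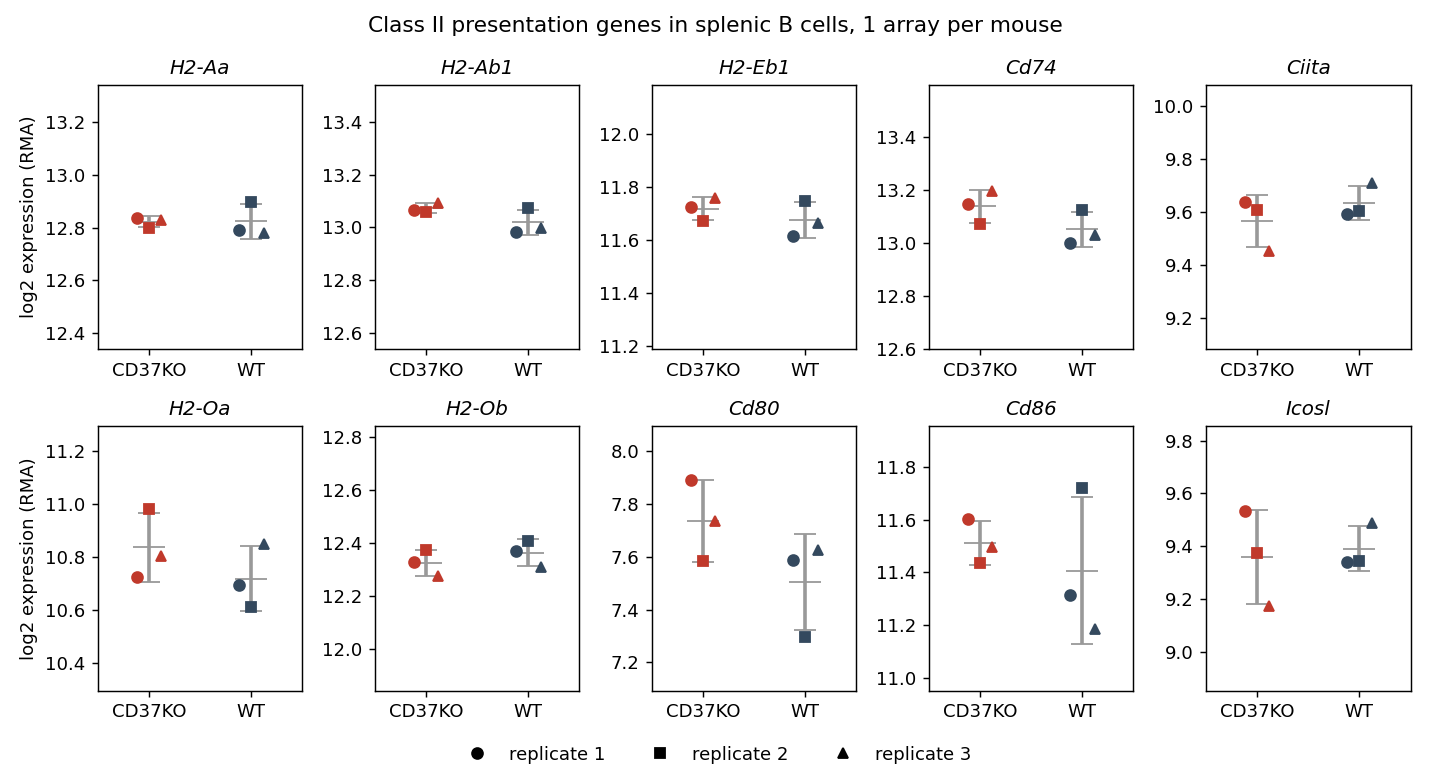
Log2 expression (RMA) of the 10 genes in the 3 CD37KO (red, left) and 3 WT (dark, right) arrays, where circles, squares and triangles mark the mice of a group, and the mean ± SD in grey. Every panel spans 1 log2 unit, and the groups overlap in all 10.

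The chains of the class II molecule itself were among the genes with the narrowest intervals. H2-Aa, the alpha chain of I-A (Entrez Gene 14960, chromosome 17), was at 12.84, 12.80 and 12.83 in CD37KO B cells and at 12.79, 12.90 and 12.78 in WT B cells. The CD37KO arrays lay within the range of the WT arrays. CD37KO and WT cells differed by a log2 value of -0.0017 (SE of 0.062, limma adjusted p = 0.995), with a 95% interval of -0.14 to 0.14.

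H2-Ab1, the beta chain that pairs with it (Entrez Gene 14961, chromosome 17), was at 13.07, 13.06 and 13.09 in CD37KO and at 12.98, 13.07 and 13.00 in WT cells. WT replicate 2 reached the CD37KO arrays while the other 2 WT arrays lay below them. The log2 difference was 0.054 (SE of 0.059, limma adjusted p = 0.861), with an interval of -0.081 to 0.19.

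H2-Eb1, the beta chain of I-E (Entrez Gene 14969, chromosome 17), was at 11.72, 11.67 and 11.76 in CD37KO and at 11.62, 11.75 and 11.66 in WT cells. The arrays of the genotypes interleaved, with a log2 difference of 0.042 (SE of 0.064, limma adjusted p = 0.900). Its partner H2-Ea is a pseudogene in the C57BL/6 haplotype, so that these mice carry no I-E on the surface. The H2-Ea probe set was below background in all 6 arrays, at 5.44, 5.51 and 5.49 in CD37KO and at 5.40, 5.38 and 5.37 in WT cells.

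H2-Eb2, a further beta chain gene next to H2-Eb1, was the one class II chain of the 5 measured that passed an unadjusted p under 0.05 from limma, which 5.95% of all genes passed. It was at 11.55, 11.67 and 11.59 in CD37KO and at 11.36, 11.49 and 11.43 in WT cells. All CD37KO arrays were above all WT arrays, with a log2 difference of 0.17 (SE of 0.066, limma adjusted p = 0.801). The unadjusted p was above 0.05 with median centring (0.0614) and without CD37KO replicate 2 (0.0891), CD37KO replicate 3 (0.0536), WT replicate 1 (0.112) or WT replicate 3 (0.0596) in limma. Genes of the H2 complex resemble one another, and whether the probes of one also bound the RNA of another was not tested. The highest value on any array was 14.04, and the I-A chains and Cd74 lay within the uppermost part of this range.

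The invariant chain and the H2-DO chains did not pass the test either. Cd74 (Entrez Gene 16149) was at 13.15, 13.07 and 13.20 in CD37KO and at 13.00, 13.13 and 13.03 in WT B cells. CD37KO replicate 2 and WT replicate 2 were out of order with the rest, so that the groups overlapped. CD37KO and WT cells differed by a log2 value of 0.087 (SE of 0.066, limma adjusted p = 0.825), with an interval of -0.065 to 0.24.

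H2-Oa, the alpha chain of H2-DO (Entrez Gene 15001, chromosome 17), was at 10.72, 10.98 and 10.80 in CD37KO and at 10.69, 10.61 and 10.85 in WT cells. Its highest array was CD37KO replicate 2 and its lowest WT replicate 2. CD37KO and WT cells differed by a log2 value of 0.12 (SE of 0.091, limma adjusted p = 0.826).

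H2-Ob, the beta chain of H2-DO (Entrez Gene 15002, chromosome 17), was at 12.33, 12.37 and 12.27 in CD37KO and at 12.37, 12.41 and 12.31 in WT cells. It had a log2 difference of -0.038 (SE of 0.062, limma adjusted p = 0.906). The arrays of both chains overlapped between genotypes. H2-DMa, the alpha chain of the peptide exchange factor, had a log2 difference of 0.12 (SE of 0.077, limma adjusted p = 0.803). The beta chains H2-DMb1 and H2-DMb2 share a probe set and were not tested. Of the 4 measured genes of peptide exchange and loading none passed an unadjusted p under 0.05 from limma in either direction.

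Ciita, the transactivator on which class II transcription depends (Entrez Gene 12265, chromosome 16), was at 9.64, 9.61 and 9.45 in CD37KO and at 9.59, 9.60 and 9.71 in WT B cells. CD37KO replicate 3 was the lowest array and WT replicate 3 the highest, with the other 4 within a narrow band. The log2 difference was -0.069 (SE of 0.073, limma adjusted p = 0.857), with an interval of -0.24 to 0.098.

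The 11 measured genes whose products act at class II promoters, Ciita included, had a median log2 difference of -0.015. Of these, 1 was higher and 0 were lower at an unadjusted p under 0.05 from limma, beside 5.95% of all genes in either direction. The one was Rfxap, a subunit of RFX, at 6.45, 6.44 and 6.42 in CD37KO and at 6.34, 6.18 and 6.33 in WT cells (log2 difference 0.15, adjusted p = 0.801 from limma). Of the genes of 7 factors that act on the Ciita promoters, 1 was higher and 0 lower in the same way, with a median of 0.012. This was Irf1, an interferon-induced transcription factor, at 9.37, 9.28 and 9.48 in CD37KO and at 9.06, 9.06 and 9.28 in WT cells (log2 difference 0.25, SE of 0.085, limma adjusted p = 0.801). Of the alternatives run, Rfxap kept an unadjusted limma p under 0.05 only with the mean of probe sets, and without any one array its p was 0.0501 to 0.142. With the mean of its probe sets Irf1 had a log2 difference of 0.14 (unadjusted limma p of 0.111), and its unadjusted p was also above 0.05 without CD37KO replicate 3 (0.0752), WT replicate 1 (0.0737) or WT replicate 2 (0.0595) and with the neutrophil marker mean as a covariate (0.278). The CD37KO arrays were above the WT arrays for both genes, by a narrow margin between the nearest arrays of Irf1.

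Of the costimulatory ligands, Cd80 had the largest difference among the 10 genes and Icosl one of the smallest. Cd80 (Entrez Gene 12519, chromosome 16), which is low on resting B cells and increases with activation, was at 7.89, 7.58 and 7.73 in CD37KO and at 7.59, 7.30 and 7.63 in WT cells. CD37KO replicate 2 lay below 2 of the WT arrays. CD37KO and WT cells differed by a log2 value of 0.23 (SE of 0.11, limma adjusted p = 0.801), with an interval of -0.020 to 0.48 and an unadjusted p of 0.0668. It was 0.13 without WT replicate 2, 0.15 without CD37KO replicate 1 and 0.31 without CD37KO replicate 2.

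The dimmer probe set of Cd80 read 7.46, 7.30 and 7.44 in CD37KO and 7.09, 6.97 and 7.24 in WT cells, and there the groups did not overlap. Its log2 difference was 0.30 (standard error 0.085, unadjusted p = 0.00796 and adjusted p = 0.800 from limma over 21780 probe sets). The probe sets thus gave the same sign and neither passed the adjustment. The neutrophil marker mean and Cd80 were both highest in CD37KO replicate 1 and lowest in WT replicate 2. They parted in CD37KO replicate 2, where the neutrophil mean (6.41) was above every WT array. There the brighter probe set of Cd80 (7.58) was below WT replicates 1 and 3. With the neutrophil mean as a covariate, chosen after the data had been seen, the log2 difference of Cd80 was -0.039 (unadjusted p = 0.792 from limma). This mean was higher in every CD37KO than in every WT array, so the fit cannot separate it cleanly from genotype. The part of neutrophils in the Cd80 values was not tested.

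Cd86 (Entrez Gene 12524, chromosome 16), the ligand that B cells upregulate first, was at 11.60, 11.44 and 11.49 in CD37KO and at 11.32, 11.72 and 11.19 in WT cells. WT replicate 2 was the highest array of all 6 and WT replicate 3 the lowest, so the WT mice enclosed the CD37KO mice. The log2 difference was 0.10 (SE of 0.13, limma adjusted p = 0.877), with an interval of -0.19 to 0.40. It was 0.26 without WT replicate 2 (unadjusted p = 0.0132 and adjusted p = 0.564 from limma) and -0.0067 without WT replicate 3.

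Icosl, the ligand of ICOS on follicular helper T cells (Entrez Gene 50723, chromosome 10), was at 9.53, 9.37 and 9.18 in CD37KO and at 9.34, 9.34 and 9.49 in WT cells. The CD37KO arrays spread to either side of the WT arrays. CD37KO and WT cells differed by a log2 value of -0.031 (SE of 0.097, limma adjusted p = 0.955), with an interval of -0.25 to 0.19.

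Of the genes of 16 ligands of B cells for receptors on T cells, these 3 included, none was called after adjustment. At an unadjusted p under 0.05 from limma 2 were higher and 2 lower in CD37KO, beside 5.95% of all genes in either direction. Those above background were Pvr and Cd274. Pvr, the poliovirus receptor that binds DNAM-1 and TIGIT, was at 9.13, 9.23 and 9.28 in CD37KO and at 8.59, 8.67 and 8.95 in WT cells (log2 difference 0.48, SE of 0.098, limma adjusted p = 0.581). Cd274, which encodes the inhibitory ligand PD-L1, was at 9.81, 9.72 and 9.67 in CD37KO and at 9.94, 9.97 and 9.99 in WT cells (log2 difference -0.23, SE of 0.063, limma adjusted p = 0.801). The groups did not overlap for either gene, as in 11.9% of all genes in either direction. The others, Vtcn1 and Tnfsf9, were below background in all 6 arrays.

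**Figure D2:**
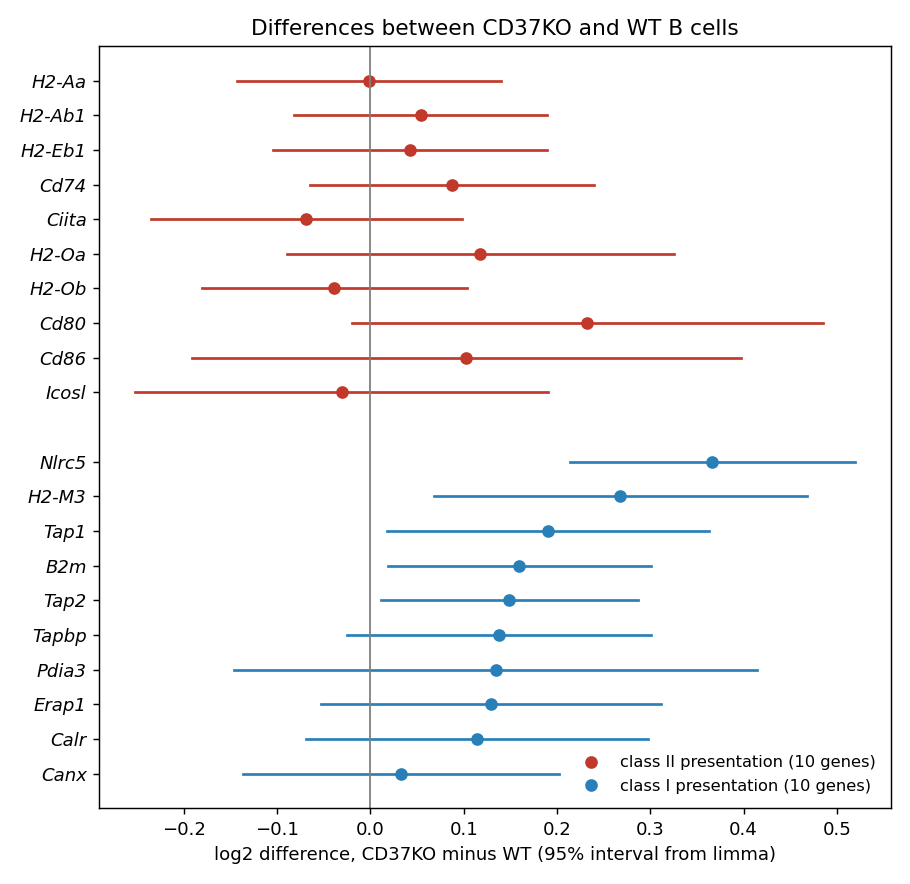
Log2 differences between CD37KO and WT arrays (positive where CD37KO is higher) for the 10 class II presentation genes (red) and for 10 genes of class I presentation (blue), with 95% intervals from limma. Every red interval includes 0, and those of Nlrc5, H2-M3, Tap1, B2m and Tap2 do not.

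Genes of MHC class I presentation, which serve CD8 T cells and share no chain with class II, were read side by side with them. The heavy chains H2-K1 and H2-D1 lie on probe sets that name several genes and were not tested. All 10 measured genes had a positive log2 difference, with a median of 0.14, where 41.8% of all genes were positive. Of the 10, 5 had an unadjusted limma p under 0.05 and no overlap between the groups, though 0 passed the adjustment. Over all genes these shares were 5.95% and 11.9%, each in either direction. Nlrc5, which activates class I genes as CIITA does class II genes, was at 10.49, 10.49 and 10.53 in CD37KO and at 10.19, 10.03 and 10.18 in WT B cells (log2 difference 0.37, SE of 0.067, limma adjusted p = 0.357). This brightest of its 19 probe sets had the largest difference among them, and the mean of its probe sets gave 0.20 (unadjusted limma p of 0.0115). The class I light chain B2m was at 13.33, 13.23 and 13.34 in CD37KO and at 13.17, 13.13 and 13.11 in WT cells (log2 difference 0.16, adjusted p = 0.801 from limma). H2-M3, Tap1 and Tap2 were the others, at log2 differences of 0.27, 0.19 and 0.15, with Tap2 named after its value had been seen. With median centring 2 of the 10 genes passed, and with the neutrophil marker mean as a covariate 1 did. Without CD37KO replicate 3 or WT replicate 2 the count was 2, and without CD37KO replicate 1 or WT replicate 1 it was 3. The share of all genes was not worked out for these alternative fits. Whether the class I genes differed more than the class II genes was not tested.

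Enzymes and regulators further along the class II pathway did not pass the adjusted test either. Of the genes of 9 endosomal enzymes (cathepsins, legumain and the reductase Ifi30), 0 passed an unadjusted p under 0.05 from limma. Their median log2 difference was 0.10. Ctsd, an aspartic protease abundant in macrophages, had the largest, at 10.94, 9.75 and 10.98 in CD37KO and 10.41, 9.75 and 9.86 in WT cells (log2 difference 0.55, SE of 0.32, limma adjusted p = 0.801). Its 3 high arrays were CD37KO replicates 1 and 3 and WT replicate 1. The log2 difference of Ctsd ran from 0.34 without CD37KO replicate 3 to 0.96 without CD37KO replicate 2 (unadjusted limma p of 0.000827), and it was 0.37 with the macrophage marker mean (unadjusted limma p of 0.000629) and -0.33 with the neutrophil marker mean as a covariate. Marchf1, the ubiquitin ligase that removes class II and CD86 from the surface, had a log2 difference of -0.030 (adjusted p = 0.933 from limma), and Cd83, which opposes it, one of 0.043 (adjusted p = 0.907 from limma). Of 11 other tetraspanins none passed an unadjusted p under 0.05 from limma in either direction, with a median of -0.012.

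The genes varied together only in part from mouse to mouse. Among the WT arrays, replicate 2 was the highest for 6 of the 10 genes, namely H2-Aa, H2-Ab1, H2-Eb1, Cd74, H2-Ob and Cd86, and among the CD37KO arrays replicate 2 was the lowest for 6, namely H2-Aa, H2-Ab1, H2-Eb1, Cd74, Cd80 and Cd86. The 3 class II chains and Cd74 thus had the same highest WT array and the same lowest CD37KO array. Ciita did not follow them, with its highest WT array in replicate 3 and its lowest CD37KO array in replicate 3. H2-Oa ran the other way in both groups, with its highest CD37KO array and its lowest WT array in replicate 2. The range over all 6 arrays was 0.11 to 0.20 for the 3 class II chains and Cd74, 0.14 for H2-Ob, 0.25 for Ciita, 0.36 for Icosl, 0.37 for H2-Oa, 0.53 for Cd86 and 0.60 for Cd80. These ranges include any difference between the genotypes, and their sizes were not tested against each other.

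**Figure D3:**
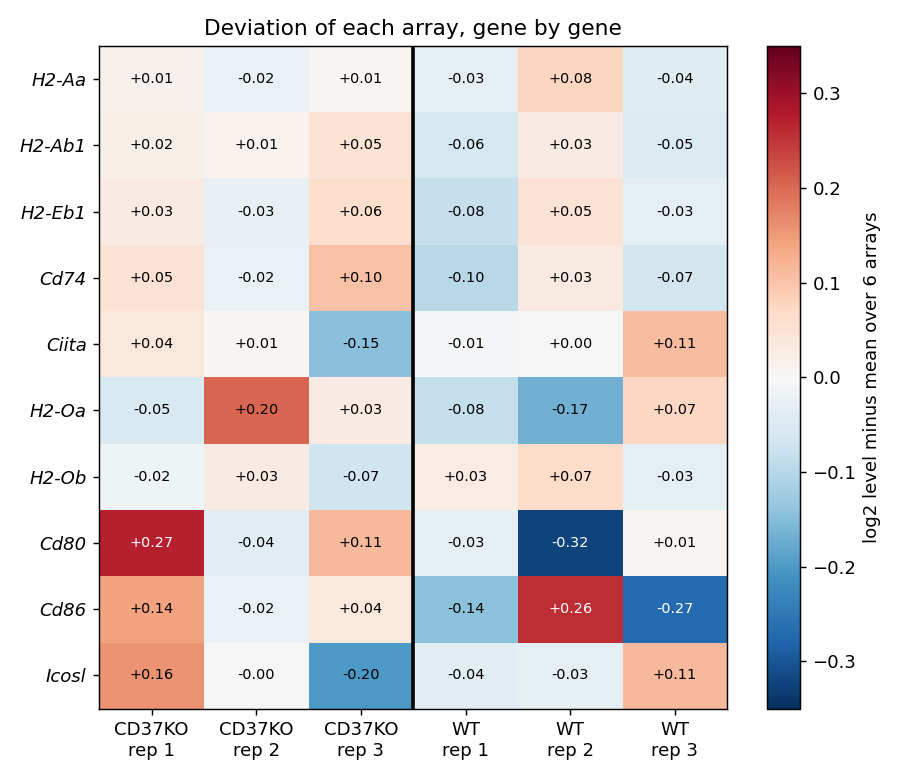
Log2 level of each gene in each array minus the gene's mean over the 6 arrays, with CD37KO arrays on the left and WT arrays on the right of the line (red above, blue below the mean). Rows of H2-Aa, H2-Ab1, H2-Eb1 and Cd74 are pale, while Cd80 and Cd86 have the strongest colours, in opposite directions in WT replicate 2.

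Cells other than B cells also carry class II molecules or CD86, so their markers were read in the same arrays. Of 17 measured B cell markers all were above background in all 6 arrays, with a mean log2 level of 11.49 to 11.50 in CD37KO and 11.46 to 11.54 in WT arrays. At an unadjusted limma p under 0.05, 0 of them were higher and 1 lower, beside 5.95% of all genes in either direction. The lower marker was Btk, with a log2 difference of -0.23 (limma adjusted p = 0.801). Of 14 dendritic cell markers, 7 were below background in all 6 arrays (Xcr1, Clec9a, Batf3, Itgae, Ccr9, Clec10a and Ccl22) and 7 above it in all 6 (Itgax, Flt3, Zbtb46, Siglech, Cd209a, Ccr7 and Cst3). The mean of the list was 6.40 to 6.50 in CD37KO and 6.49 to 6.52 in WT arrays. It was raised by Ccr7 (12.54 in CD37KO and 12.62 in WT) and Cst3 (10.83 and 10.84), the highest of the list. Of the 14 genes, 0 were higher and 2 lower (Siglech and Cd209a) at an unadjusted limma p under 0.05, beside 5.95% of all genes in either direction. The part of dendritic cells in the class II values was not tested.

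Of 19 markers of macrophages and monocytes 14 were above background in all arrays, with a mean of 8.87, 7.84 and 8.88 in CD37KO and of 8.79, 8.11 and 8.18 in WT arrays. Of the 19, 1 (Lyz2) was higher and 0 were lower at an unadjusted limma p under 0.05, beside 5.95% of all genes in either direction. In the mean of the list, CD37KO replicates 1 and 3 and WT replicate 1 were the 3 high arrays, as for Ctsd. Lyz2 did not follow this order, at 9.66, 9.19 and 8.95 in CD37KO and at 9.10, 8.66 and 8.30 in WT arrays, where the groups overlapped. With the mean of these markers as a covariate, none of the 10 genes reached an unadjusted limma p under 0.05, and their log2 differences ran from -0.058 for Ciita to 0.19 for Cd80.

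Neutrophils carry little class II at rest, and their markers moved with genotype. Of 15 markers 6 were above background in all arrays. All 15 had a positive log2 difference, as did 41.8% of all genes. Of the 15, 13 passed an unadjusted p under 0.05 from limma, beside 5.95% of all genes in either direction. Their mean was 7.75, 6.41 and 7.03 in CD37KO and 6.10, 5.92 and 6.14 in WT arrays. None was called after adjustment. Every CD37KO array had a higher mean than every WT array, so the neutrophil covariate cannot be separated cleanly from genotype. The part of these cells in the results above was not tested. Of 14 T cell markers 0 were higher and 1 lower at an unadjusted p under 0.05, with a median of -0.078. Of 8 plasma cell markers none passed, with a median of 0.028.

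**Figure D4:**
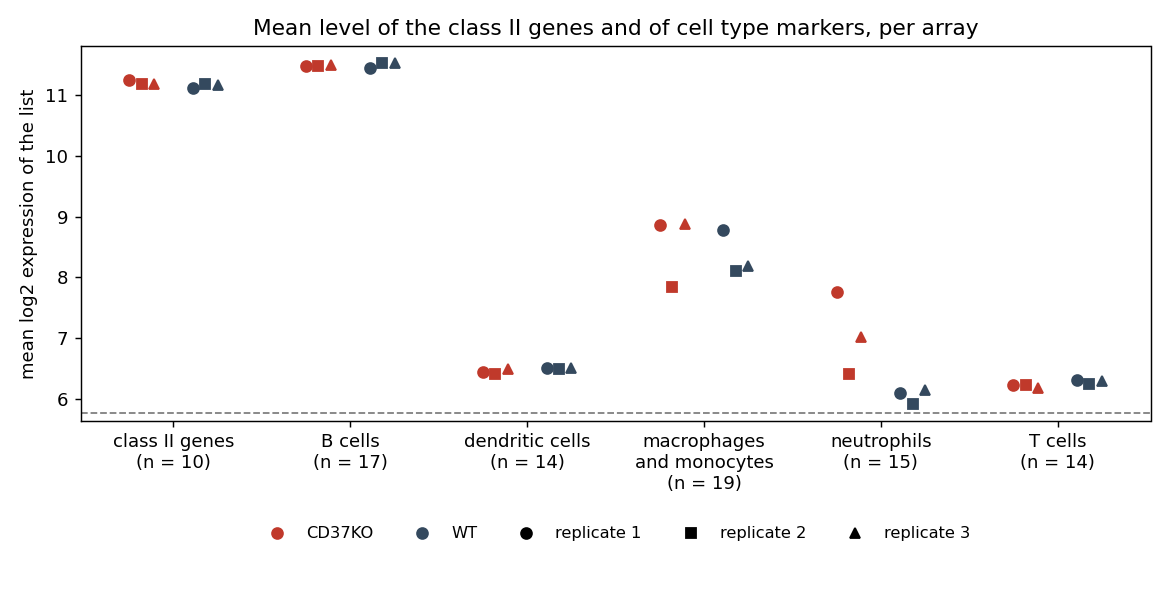
Mean log2 expression of the 10 class II genes and of marker lists of 5 cell types in each array, with CD37KO in red to the left of WT in dark and a circle, square or triangle for each mouse. Background (5.76) is dashed, class II genes and B cell markers stay level over the arrays, macrophage means run from 7.84 to 8.88 and neutrophil means from 5.92 to 7.75.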

How the data were processed

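RNA of CD43-/B220+ splenic B cells from 3 CD37KO and 3 WT mice was hybridised to Affymetrix gene arrays, with 1 array for each animal. Values deposited by the authors are log2 expression after RMA, which corrects background, applies quantile normalisation and summarises probes into probe sets. For the RMA software, a version was not given in the sources used here, and the submitters' processing notes name the build mm8. Raw scans were not used, so the RMA step was not varied.

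Of 35361 probe sets, 21780 named 1 gene in the platform annotation, 1605 several and 11976 none. Only the first were used, with the brightest probe set per gene, which gave 19935 genes. CD37KO was compared with WT by lmFit and eBayes in limma 3.58.1 (R 4.3.3), with Benjamini-Hochberg adjustment over all genes and a threshold of 0.05. Background was the 95th percentile of the mean level of 1027 olfactory receptor genes. The fit was tested on simulated data.

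The 10 genes and all lists were chosen with earlier results of these data known. Of each other list, up to 4 genes with the smallest unadjusted p were eligible to be named, beside Cd37 and H2-Ea, and the pathway genes H2-DMa, Ifi30, Marchf1 and Cd83. Alternatives covered normalisation, probe set choice, filtering, moderation, array weights, marker means as covariates, replicate number and each array left out.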

Additional observations from a re-analysis of the deposited data

How the results depend on the processing

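None of the 10 class II genes was called at an adjusted p under 0.05 from limma in any of 15 alternatives (lowest adjusted p 0.256, Cd74 with array weights), and all 10 stayed above background with background set at the 90th or 99th percentile. The count of all genes called, 11, was 19 with array weights, 4 with the replicate block, 2 with the neutrophil covariate and 4 to 14 with each array left out. At an unadjusted p under 0.05 from limma, 0 of the 10 genes passed in the main fit. The number was 1 with the mean of probe sets (Cd80), 2 with array weights (Cd74 and Cd80) and 1 with the replicate block (Cd80). It was 0 to 1 with each array left out, where Cd80 passed without CD37KO replicate 2 or WT replicate 3 and Cd86 without WT replicate 2. The array weights were 4.10 for WT replicate 1, against 0.46 for WT replicate 2 and 0.76 for WT replicate 3. The median log2 difference of the 10 genes, 0.048, was 0.088 with array weights, 0.012 with the neutrophil covariate and 0.025 to 0.071 with each array left out. The count of class I genes at an unadjusted p under 0.05 from limma, 5, was 2 with median centring, 3 with the replicate block, 1 with the neutrophil covariate and 2 to 5 with each array left out. The share of all genes at this unadjusted threshold was not worked out for the alternatives, so neither count can be set against it there.

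Some differences changed sign, small ones as well as those of Cd80 and Ctsd. With array weights H2-Aa was at 0.027 and Marchf1 at 0.015. With the neutrophil covariate H2-Ob was at 0.0027, Cd80 at -0.039, Ifi30 at -0.018 and Ctsd at -0.33. With each array left out the log2 difference ran from -0.023 to 0.036 for H2-Aa, from -0.12 to 0.062 for Icosl, from -0.0067 to 0.26 for Cd86, from -0.066 to 0.0074 for Marchf1 and from -0.010 to 0.092 for Cd83. The neutrophil marker mean was higher in every CD37KO than in every WT array, so fits with it cannot separate it cleanly from genotype. The causes were not tested. The replicate numbers were treated as names, since deviations of arrays with the same number correlated at 0.24, 0.0068 and -0.14, and 1 of 6 arrays correlated best with its own number. The neutrophil covariate, the dimmer Cd80 probe set and the alternatives of class I and other named genes were chosen after seeing the data. H2-Ea, Marchf8, Tnfsf9 and Vtcn1 gave no value among genes above background. Signal over background limits the reading of Cd80 and Rfxap more than that of the class II chains, and 3 arrays per group limit all of them. The I-A chains and Cd74 lay in the uppermost part of the signal range, and whether differences are read in full there was not tested.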

Other observations

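Nlrc5 was covered by 19 probe sets that name only this gene, and all 19 had a positive log2 difference between CD37KO and WT cells. The differences ran from 0.0030 to 0.37 with a median of 0.18, and 10 passed an unadjusted p under 0.05 from limma, whereas the lowest adjusted p was 0.385. The probe sets read the same RNA of the same 6 mice and are not replicates.

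Marchf8, a ubiquitin ligase related to Marchf1, had a log2 difference of 0.20 but lay below background in all 6 arrays. Of the 3 measured genes of class II turnover it was the one at an unadjusted p under 0.05 from limma, which 5.95% of all genes passed.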
